A study of Raphidocelis subcapitata with 72 samples.

Results

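In the freshwater green alga Raphidocelis subcapitata, 12 of 12181 measured genes met a rule for levels that set 1 culture type apart only late. In these 12 genes the group means lay within set bounds 1 h after iron nanoparticles were added and were apart by 4 h. For 6 of them the mean messenger level of the particle-headed cultures at 4 h was 0.530 to 0.563 times that of the cultures headed neg, and for the other 6 it was 1.77 to 2.06 times that level. The 12 genes were chosen by these very values, so the differences from the neg-headed cultures describe how they were picked, and calls on them support nothing. The choice also bears on the contrast between the particle types, since both had to lie near neg at 1 h and past the same threshold on the same side of neg at 4 h. In that contrast 0 of the 12 genes passed the test at either hour, against 0.00845% of all genes tested at 4 h and 3.08% at 1 h, so at these shares 0 of 12 is no result about these genes. In the mean change from 1 h to 4 h, on which the choice bears in part, 8 of the 12 passed, against 32.3% of all genes tested.

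Mid-log cells of strain ATCC 22662, grown in high salt medium under constant white light with bubbled air and CO2, received nFe3O4 (nanoparticles of magnetite), nZVI (nanoparticles of zero-valent iron), each at 100 mg/L, or nothing. RNA was taken after 1 h and 4 h, and its polyadenylated part was sequenced with a stranded kit. The labels give 3 biological replicates to each of the 6 groups, each sequenced in 4 lane columns that were summed here to 1 library. Levels are given in CPM, the count of a gene per library of fixed size, with library sizes scaled by edgeR's TMM method, which aligns libraries on the bulk of their genes. The lane columns of nFe3O4 1 h replicate 2 repeated a column of replicate 1, so that library was left out and its group holds 2 libraries. The remaining 17 libraries held 26322767 to 43364641 counts. Whether the replicate flasks had separate inocula is not in the labels, and the p-values speak only for the spread between these libraries.

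The deposited tables disagreed on which libraries were neg and which nZVI. When 49 genes of the transformed table were compared, all 12 libraries headed neg or nZVI in the count table were best matched by the library with the other name and the same hour and number, at r across genes of 0.944 to 0.991. The groups are therefore called neg-headed and nZVI-headed after the count table, where the labels make neg the particle-free control. Every direction below holds for those headings, and under the names of the transformed table the group that stands apart is nZVI. Particle groups, cultures and libraries below are the nFe3O4 and nZVI-headed ones, and under those other names the nZVI-headed ones would be the control. None of the 12 genes is in the transformed table.

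Iron serves photosynthetic cells as a cofactor of the photosystems, cytochromes and ferredoxin, while free ferrous iron reacts with hydrogen peroxide to give hydroxyl radicals. Zero-valent iron corrodes in water to ferrous and then ferric iron and uses up oxygen as it does so, whereas magnetite is a mixed ferrous and ferric oxide that dissolves slowly. Both kinds of particle can also stick to algal cells and shade them. The files give locus identifiers with no gene name or product, and no annotation was used here, so no role can be given for any of the 12 genes, and no sequence is shown. No 2 of the 12 genes had consecutive locus numbers.

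The rule worked on L, the log2 of the group mean CPM plus 1. A gene was kept if its mean over the 6 groups lay from 5 to below 1000 CPM, if both particle groups lay within 0.4 of neg in L at 1 h, and if both lay at least 0.7 above or both at least 0.7 below neg at 4 h. Of 7594 genes in that abundance range, 471 were apart at 4 h, 162 of them higher and 309 lower in the neg-headed cultures. Among these 471 genes, 369 were already apart by the same threshold and direction at 1 h, 0 were apart in the opposite direction at 1 h, and 12, or 2.55%, met the bound at 1 h. The rest were in neither class, and these counts follow from the bounds set. The median of the smaller of the 4 h differences was 0.76 in the 12 genes and 0.91 in the other 459, and it reached 0.93 in the 12 and 2.97 in the others.

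**Figure D1:**
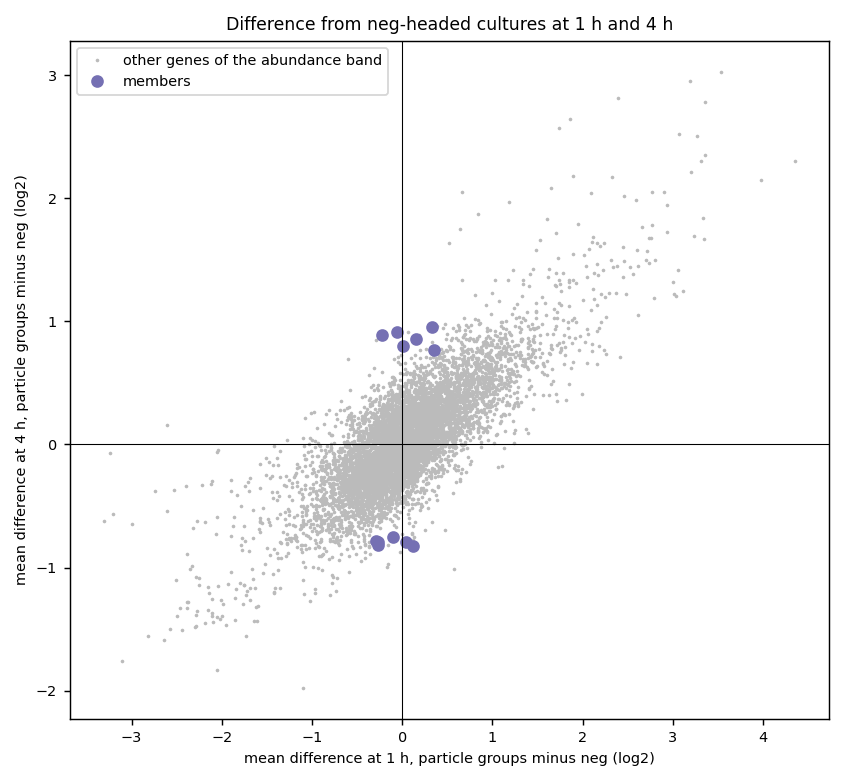
Each point is a gene of the abundance range, placed by the mean difference in L (log2 scale) of the nFe3O4 and nZVI-headed groups from the neg-headed group at 1 h (x axis) and at 4 h (y axis). Large points are the 12 genes that met the rule, which lie within 0.4 of 0 at 1 h and at least 0.7 above or below 0 at 4 h. The rule bounds each difference and not their mean, so other genes can lie there too. RSUB_12210, which did not meet the rule, stands at -0.17 and -0.99.

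The name late fits the genes unevenly. For 6 of the 12 the 1 h difference from neg was over 0.3 in at least 1 particle group, and in 2, RSUB_04546 and RSUB_12771, the neg-headed libraries already lay below all particle libraries at 1 h. Such separation at 1 h, in either direction, was found in 37.7% of the 11841 genes tested. At the 4 h threshold, RSUB_04864 was the nearest gene inside among those higher in neg, at differences of -0.92 for nFe3O4 and -0.71 for nZVI-headed, and RSUB_10118 the nearest outside, at -0.71 and -0.69. Among those lower in neg, RSUB_12131 was the nearest inside, at 0.96 and 0.76, and RSUB_08940 the nearest outside, at 0.80 and 0.65. At the 1 h bound, RSUB_01885 was just inside, at -0.40 for nFe3O4, and RSUB_12839 just outside, at -0.43. On the other side RSUB_04546 was just inside, at 0.39 for nFe3O4, and RSUB_10116 just outside, at 0.42.

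In 2 of the genes lower in neg at 4 h, RSUB_02912 and RSUB_03188, the particle-headed cultures stood higher at 4 h than at 1 h while the neg-headed cultures differed less between the hours. RSUB_02912 stood at 1 h at 23.7, 19.3 and 21.5 CPM in the neg-headed libraries, at 19.4 and 20.9 CPM with nFe3O4 and at 22.1, 20.9 and 20.03 CPM in the nZVI-headed libraries. At 4 h the neg-headed libraries read 26.6, 24.9 and 27.0 CPM, the nFe3O4 libraries 50.3, 53.3 and 44.8 CPM and the nZVI-headed libraries 45.8, 51.6 and 54.8 CPM. All libraries were mixed at 1 h, and at 4 h each particle library lay above each neg-headed one, on average 1.91 times as high. The 3 neg-headed libraries of 4 h were also above the 3 of 1 h, by a smaller margin. The change in L from 1 h to 4 h was 0.27 in neg, 1.25 with nFe3O4 and 1.23 in nZVI-headed cultures.

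RSUB_03188 followed the same course at a lower level. It read 14.2, 11.8 and 13.9 CPM in neg at 1 h, 13.2 and 14.5 CPM with nFe3O4, and 14.7, 13.1 and 10.7 CPM in nZVI-headed libraries. At 4 h neg stood at 12.5, 12.5 and 15.2 CPM, nFe3O4 at 24.4, 21.1 and 28.4 CPM, and nZVI-headed at 25.2, 23.9 and 21.3 CPM. The groups overlapped at 1 h, and at 4 h every particle library was above every neg-headed one. The neg-headed mean was 13.3 CPM ± 1.32 (SD, n = 3) at 1 h and 13.4 CPM ± 1.59 (SD, n = 3) at 4 h, a change in L of 0.01, beside changes of 0.79 with nFe3O4 and 0.83 in nZVI-headed cultures. These are also the only 2 of the 12 genes that met the rule whichever of the 17 libraries was left out.

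In the group means of RSUB_12771 and RSUB_04546 a small gap at 1 h was wider at 4 h, with neg lower and the particle groups higher at the later hour. In edgeR's test that widening passed for RSUB_12771 in nZVI-headed cultures only and for RSUB_04546 in neither particle group. RSUB_12771 read 8.51, 10.3 and 9.13 CPM in neg at 1 h, 12.8 and 11.2 CPM with nFe3O4, and 10.8, 12.9 and 11.8 CPM in nZVI-headed libraries. At 4 h it read 7.77, 6.91 and 7.87 CPM in neg, 16.8, 13.1 and 15.9 CPM with nFe3O4, and 15.3, 16.5 and 15.3 CPM in nZVI-headed libraries. Its particle-to-neg ratio at 4 h, 2.06, was the highest among the 12 genes. RSUB_04546 stood in neg at 12.8, 11.9 and 12.8 CPM at 1 h and at 9.42, 8.16 and 12.6 CPM at 4 h. With nFe3O4 it stood at 17.01 and 16.3 CPM at 1 h and at 17.7, 16.5 and 19.3 CPM at 4 h, and in nZVI-headed libraries at 15.6, 14.4 and 17.8 CPM and then at 16.1, 16.5 and 20.6 CPM. Each particle library lay above each neg-headed library at both hours. In this gene the change in L between the hours stayed below 0.4 in size in all 3 culture types, at -0.29, 0.09 and 0.15.

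In the last 2 genes lower in neg at 4 h the neg-headed level itself was lower at 4 h than at 1 h, alone in RSUB_05305 and beside lower particle groups in RSUB_12131. RSUB_12131, the most abundant of the 12 with a mean of 227 CPM over the groups, read 314, 334 and 273 CPM in neg at 1 h, 325 and 279 CPM with nFe3O4, and 453, 359 and 340 CPM in nZVI-headed libraries. All nZVI-headed libraries of 1 h already lay above the neg-headed ones, at the nearest 340 against 334 CPM, while the nFe3O4 libraries overlapped neg. At 4 h the neg-headed libraries read 67.2, 88.8 and 82.0 CPM, the nFe3O4 libraries 143, 162 and 160 CPM and the nZVI-headed libraries 129, 148 and 128 CPM. No 4 h library came near the lowest 1 h library, and the change in L was -1.94 in neg and -0.96 with nFe3O4, with nZVI-headed cultures in between.

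RSUB_05305 was the least even of the 12 genes between replicates. At 1 h it read 9.05, 11.04 and 9.23 CPM in neg, 7.47 and 9.82 CPM with nFe3O4 and 8.01, 9.98 and 5.55 CPM in nZVI-headed libraries. At 4 h it read 5.28, 4.93 and 7.21 CPM in neg, 8.30, 7.45 and 19.6 CPM with nFe3O4 and 13.6, 12.7 and 7.90 CPM in nZVI-headed libraries. The change in L was -0.66 in neg, 0.41 with nFe3O4 and 0.49 in nZVI-headed cultures. The nFe3O4 group at 4 h held 1 library, replicate 3, far above its other 2, with a coefficient of variation of 57.5%, and without that library the gene no longer met the rule.

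**Figure D2:**
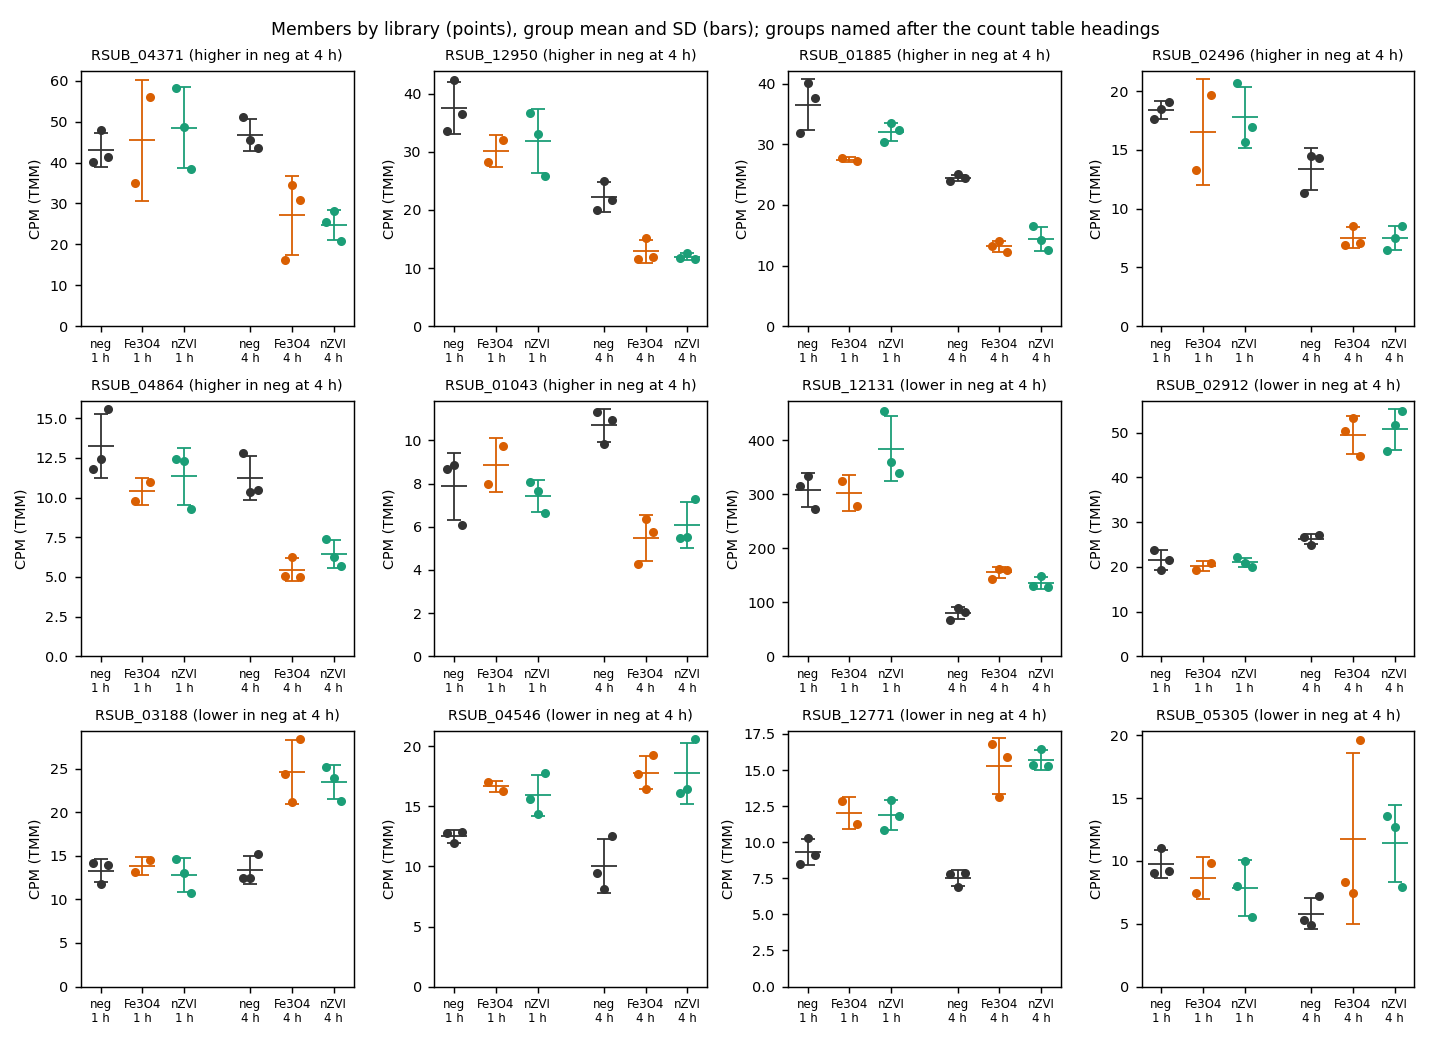
Each panel shows 1 of the 12 genes, with CPM on TMM-scaled library sizes on the y axis and the 6 groups on the x axis, where points are libraries and bars are the group mean and SD (n = 2 for nFe3O4 at 1 h, n = 3 elsewhere). At 4 h the 3 neg-headed libraries lie above or below all 6 particle libraries in every panel, as in RSUB_02912 with neg at 24.9 to 27.0 CPM and the particle libraries at 44.8 to 54.8 CPM.

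Of the 6 genes higher in neg at 4 h, RSUB_04371 and RSUB_01043 had a neg-headed mean that was higher at 4 h than at 1 h. RSUB_04371 read 40.2, 47.9 and 41.3 CPM in neg at 1 h, 34.9 and 55.9 CPM with nFe3O4, and 58.4, 48.8 and 38.5 CPM in nZVI-headed libraries. At 4 h it read 51.1, 45.6 and 43.7 CPM in neg, 16.1, 34.4 and 30.8 CPM with nFe3O4, and 25.5, 28.1 and 20.8 CPM in nZVI-headed libraries. The particle libraries spread widely at 1 h, on both sides of neg, and all lay below neg at 4 h. RSUB_01043, the least abundant of the 12 genes, stood in neg at 8.67, 8.87 and 6.09 CPM at 1 h and at 11.3, 9.83 and 10.9 CPM at 4 h. With nFe3O4 it stood at 7.96 and 9.75 CPM and then at 4.27, 6.35 and 5.76 CPM, and in nZVI-headed libraries at 8.07, 7.64 and 6.62 CPM and then at 5.46, 5.51 and 7.31 CPM. The change in L was 0.40 in neg against -0.61 with nFe3O4 and -0.25 in nZVI-headed cultures, and all 3 neg-headed libraries were above the particle libraries at 4 h.

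RSUB_04864 had a neg-headed level slightly lower at 4 h than at 1 h and particle groups well below it. It read 11.8, 12.4 and 15.6 CPM in neg at 1 h, 9.78 and 10.998 CPM with nFe3O4 and 12.4, 12.3 and 9.27 CPM in nZVI-headed libraries. At 4 h it read 12.8, 10.4 and 10.5 CPM in neg, 5.04, 6.28 and 5.03 CPM with nFe3O4 and 7.39, 6.23 and 5.70 CPM in nZVI-headed libraries. At 1 h the neg-headed libraries overlapped the nZVI-headed ones and lay above both nFe3O4 libraries, and at 4 h they lay above all particle libraries. Its particle-to-neg ratio at 4 h, 0.530, was the lowest of the 12 genes.

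In RSUB_12950, RSUB_01885 and RSUB_02496 the level was lower at 4 h in every culture type, and more so in the nFe3O4 and nZVI-headed groups. RSUB_12950 read 33.7, 42.4 and 36.5 CPM in neg at 1 h, 28.2 and 32.1 CPM with nFe3O4 and 36.7, 33.1 and 25.8 CPM in nZVI-headed libraries. At 4 h it read 19.9, 25.0 and 21.7 CPM in neg, 11.5, 15.2 and 11.9 CPM with nFe3O4 and 11.7, 12.6 and 11.6 CPM in nZVI-headed libraries. At 1 h the neg-headed libraries overlapped the nZVI-headed ones and lay above both nFe3O4 libraries, and at 4 h they lay above all particle libraries. The change in L was -0.73 in neg, -1.17 with nFe3O4 and -1.34 in nZVI-headed cultures. This was the steepest drop of the 6 genes in each culture type.

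RSUB_01885 read 32.0, 40.1 and 37.7 CPM in neg at 1 h, 27.8 and 27.2 CPM with nFe3O4 and 30.4, 33.5 and 32.3 CPM in nZVI-headed libraries. At 4 h its neg-headed libraries were close to each other at 24.0, 25.1 and 24.4 CPM, above 13.1, 14.1 and 12.3 CPM with nFe3O4 and 16.5, 14.2 and 12.5 CPM in nZVI-headed libraries. Both nFe3O4 libraries already lay below neg at 1 h, while the nZVI-headed libraries overlapped it. RSUB_02496 stood in neg at 17.6, 18.4 and 19.1 CPM at 1 h and at 11.3, 14.5 and 14.3 CPM at 4 h. With nFe3O4 it stood at 13.3 and 19.7 CPM and then at 6.94, 8.55 and 7.09 CPM, and in nZVI-headed libraries at 20.7, 15.7 and 16.98 CPM and then at 6.49, 7.53 and 8.55 CPM. Its 2 particle groups had nearly equal means at 4 h, 7.53 CPM ± 0.889 (SD, n = 3) and 7.52 CPM ± 1.03 (SD, n = 3).

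**Figure D3:**
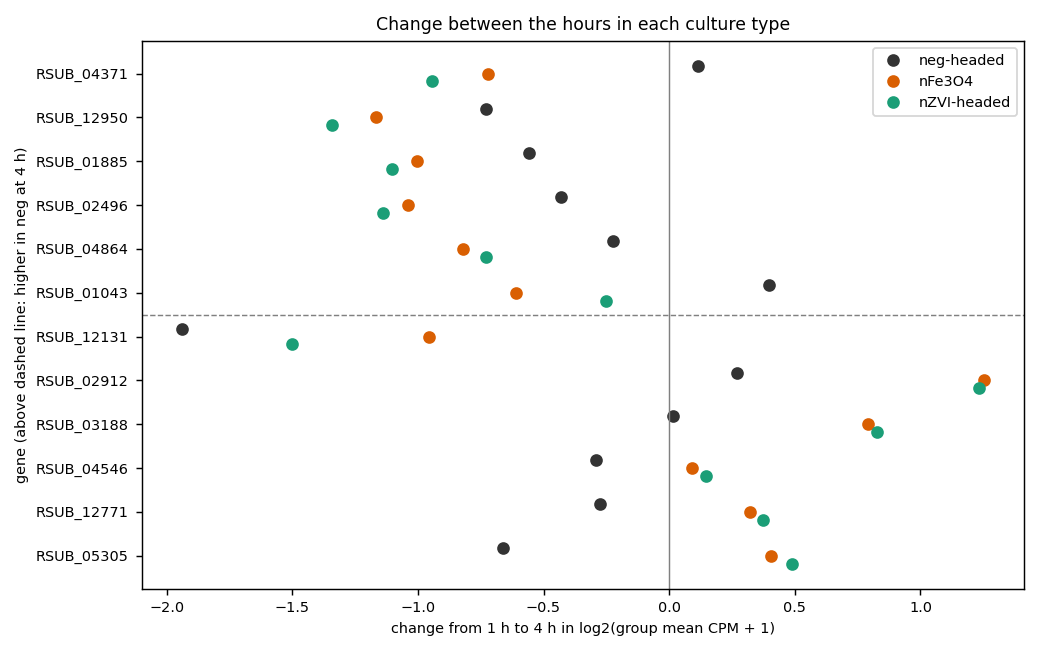
For each of the 12 genes (y axis) the points give the change from 1 h to 4 h in log2(group mean CPM + 1) (x axis) in neg-headed, nFe3O4 and nZVI-headed cultures. Above the dashed line, for genes higher in neg at 4 h, the particle points lie to the left of neg, with medians of -0.91 and -1.02 against -0.33, and below it they lie to the right, with medians of 0.36 and 0.43 against -0.28. The rule fixed these sides in advance.

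Set side by side, the genes higher in neg had a median change in L of -0.33 in neg, -0.91 with nFe3O4 and -1.02 in nZVI-headed cultures. In the genes lower in neg the medians were -0.28, 0.36 and 0.43. The rule set on which side of neg the particle changes lie, so the gap between these medians follows from the choice. Over the 7594 genes of the abundance range the medians lay near 0 in all 3 culture types, from -0.02 to 0.00. In neither direction did a gene meet the rule through a shift of at least 0.4 in neg alone with both particle groups within 0.4 of their 1 h level. With CPM a level is a share of the library, and in these bulk cultures fewer cells with a transcript and less of it per cell cannot be told apart.

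The mean change from 1 h to 4 h over the 3 culture types was fitted as the measure of how the genes differed between the hours. The rule bears on it: it is the neg-headed change plus a share of the particle groups' changes relative to neg, and the choice of members favours one sign of those. The calls below are therefore a description of the 12 genes and support nothing about them. In edgeR's quasi-likelihood fit, with p adjusted by Benjamini-Hochberg over every gene tested, 8 of the 12 genes passed an adjusted p of 0.05, against 32.3% of 11841 genes tested. Of the 8, 6 fell and 2 rose, with a median log2 fold change of -0.36 over the 12 genes and 0.02 over all genes tested. RSUB_12131 fell by 1.47 on the log2 scale (SE 0.08, adjusted p = 8.49e-09, edgeR), the largest fall of the 12. RSUB_12950 fell by 1.13 on that scale (SE 0.09, adjusted p = 1.36e-07, edgeR).

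All 9 libraries of 4 h lay below all 8 of 1 h in 3 genes, RSUB_12131, RSUB_12950 and RSUB_01885, against 2.31% of genes tested, and above them in 1, RSUB_02912, against 0.997%.

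Both genes that rose were lower in neg at 4 h. RSUB_02912 rose by 0.95 on the log2 scale (edgeR, SE 0.06, adjusted p = 3.80e-08) and RSUB_03188 by 0.58 (edgeR, SE 0.09, adjusted p = 9.71e-05), with larger changes in L in the particle groups than in neg. RSUB_02496, RSUB_01885, RSUB_04864 and RSUB_04371 fell, with log2 fold changes of -0.94, -0.93, -0.66 and -0.53. In RSUB_04371 the adjusted p was 0.00897 in edgeR's fit and 0.0504 without nFe3O4 1 h replicate 3, which leaves that group with 1 library. The log2 fold change was then -0.41, so the direction held and the adjusted p passed just above 0.05. The other 4 genes had log2 fold changes of -0.18 for RSUB_01043, 0.15 for RSUB_12771, 0.08 for RSUB_05305 and -0.02 for RSUB_04546 and did not pass. RSUB_12771, at an adjusted p of 0.137 in edgeR's fit, reached 0.0443 without neg-headed 1 h replicate 2.

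By direction, 5 of the 6 genes higher in neg at 4 h fell over the mean of the culture types and 0 rose, while of the 6 lower in neg 2 rose and 1 fell. Across all genes tested 16.6% fell and 15.7% rose by edgeR, but the choice of members favours a fall in the first 6 and a rise in the others, so nothing is read from the split. Among the other 459 genes apart at 4 h, 167, or 36.4%, passed this test, and the median size of their log2 fold change was 0.27 against 0.62 in the 12 genes. With 12 genes picked by their values, this difference is given as a description.

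The contrast between nZVI-headed and nFe3O4 cultures asked whether the 2 particle groups, which the rule required to lie on the same side of neg, also differed from each other. Requiring both groups past 0.7 leaves out genes in which only 1 was, so the rule bears on this contrast at 4 h too. At 4 h 0 of the 12 genes passed edgeR's test, beside 0.00845% of all genes tested, and 0 of the 12 had an unadjusted p below 0.05, against 835 of the 11841 genes tested. DESeq2 also called 0. Log2 fold changes ran from -0.20 in RSUB_12131 to 0.24 in RSUB_04864. The widest 95% interval, that of RSUB_05305, ran from -0.73 to 0.63, and that of RSUB_02912 from -0.17 to 0.25. All 12 intervals held 0, which does not show that the particle groups were alike.

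At 1 h 0 of the 12 genes passed the same test between the particle groups, against 3.08% of all genes tested, and DESeq2 called 0. An unadjusted p below 0.05 was found in 1 of the 12, RSUB_12131, and in 2229 of the 11841 genes tested. Its mean was 384 CPM ± 60.7 (SD, n = 3) in the nZVI-headed libraries and 302 CPM ± 32.6 (SD, n = 2) with nFe3O4. The log2 fold change was 0.35, with a 95% interval from 0.05 to 0.65 and an adjusted p of 0.189 in edgeR's test. The rule itself limits this contrast, as both groups had to lie within 0.4 of neg in L at 1 h. In the other 11 genes the interval held 0.

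**Figure D4:**
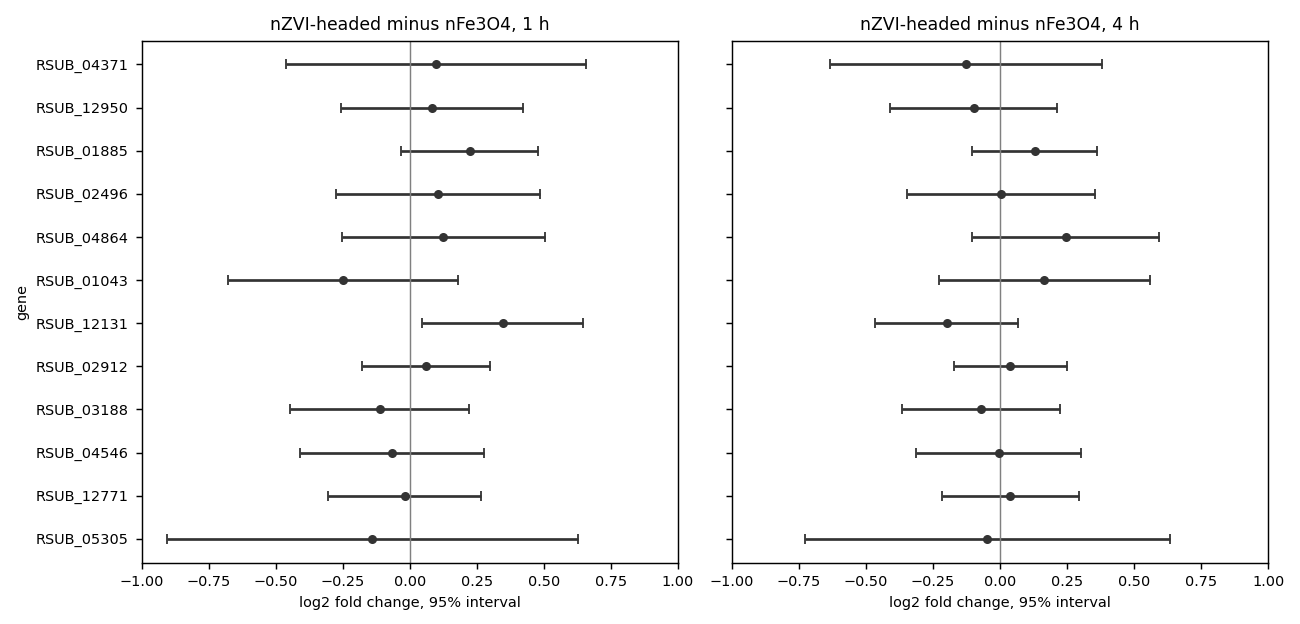
Points are edgeR log2 fold changes (x axis) of nZVI-headed against nFe3O4 libraries at 1 h (left) and 4 h (right) for each of the 12 genes (y axis), and bars are 95% intervals. All intervals at 4 h hold 0, and at 1 h that of RSUB_12131 lies between 0.05 and 0.65.

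For completeness, edgeR's test on the contrasts that chose the genes called all 12 of them at 4 h, against 23% of genes tested for nFe3O4 against neg and 19.9% for nZVI-headed against neg. At 1 h it called 1 of the 12, RSUB_01885, for nFe3O4, against 28.9% of genes tested, and 1, RSUB_12771, for nZVI-headed, against 41.3%. The difference of the effect between the hours passed for 3 of the 12 genes with nFe3O4, against 1.97% of genes tested, and for 5 in nZVI-headed cultures, against 9.27%. At 4 h the neg-headed libraries of all 12 genes were free of overlap with the particle libraries, in 6 genes above and in 6 below, against 13.3% and 13% of genes tested. The rule used the values behind these counts, so they support nothing about the genes, and all of them share the neg-headed libraries of an hour. For the difference between the hours the rule set the sign and a least size in L, though not whether a gene passed. A pass there is therefore no support either. RSUB_02912 passed there in both particle groups, and RSUB_04371, RSUB_12950, RSUB_04864, RSUB_04546 and RSUB_05305 passed in neither. For these last genes a difference between the hours was not shown by that test.

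The spread between lanes was smaller than that between libraries. The 12 genes held 127 to 16965 counts a library after lanes were summed. Of lane counts from 1 to 20 in the whole table, 63.5% were even, so single counts may not be separate fragments. Between the 4 lanes of a library the chi-square per degree of freedom was 1.59 to 2.61, and between libraries of a group it was 5.09 to 127. The lane values exceed 1, the value for independent counts, in all 12 genes, and with lane 1 alone 5 of the 12 met the rule. The biological coefficient of variation from edgeR's fit had a median of 0.133 over the 12 genes and 0.131 over the abundance range. It was highest in RSUB_05305, at 0.277, and in RSUB_04371, at 0.207.

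Which genes met the rule depended on single libraries. Leaving out each of the 17 libraries in turn gave 10 to 28 genes and retained 7 to 12 of the 12. The largest number, 28, came without nFe3O4 1 h replicate 3, which leaves that group with 1 library, and held 8 of the 12 genes. RSUB_01885 met the rule in 11 of the 17 leave-outs, RSUB_04546 in 12 and RSUB_04864 in 13, and the other genes in 14 or more. Without neg-headed 4 h replicate 1 the rule gave 10 genes, of which 7 were among the 12, and the 5 lost were RSUB_04371, RSUB_01885, RSUB_04864, RSUB_01043 and RSUB_12131.

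**Figure D5:**
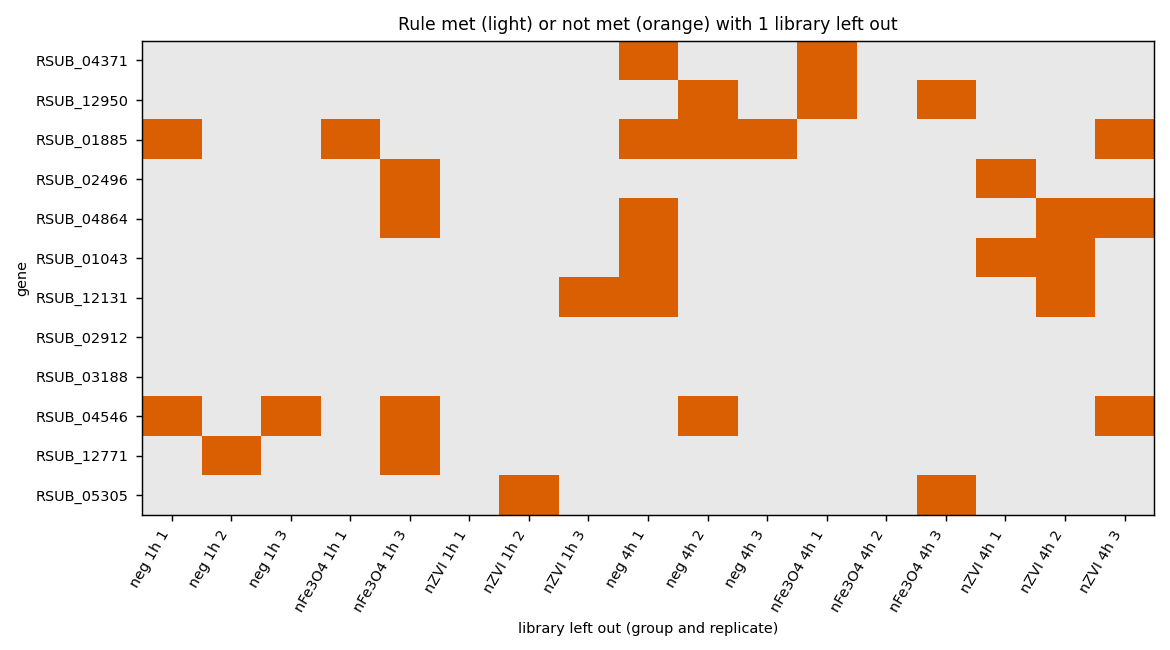
Each column is 1 of the 17 libraries left out (x axis, group and replicate, with neg for the neg-headed group) and each row 1 of the 12 genes (y axis), where light cells mark that the rule was still met and orange cells that it was not. RSUB_02912 and RSUB_03188 are light throughout, and RSUB_01885 is light in 11 of 17 columns.

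The authors' own comparisons rest on the same cultures under the other names. Among 4 h results, the authors' deposited table that sets nZVI against control listed all 12 genes among 5645 in all, 6 with positive and 6 with negative log2 fold changes, for example -0.92 for RSUB_02912 and 0.95 for RSUB_04371. Those signs are opposite to the nZVI-headed minus neg-headed differences here, and across 5484 genes the fold changes of that deposited table correlated at -0.986 with them. The authors' deposited table that sets nZVI against nFe3O4, also at 4 h, listed all 12 genes too, among 5815 in all, with a correlation over genes of -0.984 to nFe3O4 against neg-headed here. The authors' deposited table that sets nFe3O4 against control, at 4 h as well, listed 1 of the 12 genes, RSUB_12131, with a log2 fold change of 0.20, among 1587 in all. Over genes, the fold changes of that deposited table correlated at -0.992 with nZVI-headed against nFe3O4 here, where the same gene stood at -0.20. At 1 h the authors' deposited table of nFe3O4 with control, whose fold changes had a correlation over genes of -0.966 to nZVI-headed against nFe3O4 here, listed 3 of the 12 genes among 4601 in all. The authors' deposited tables of nZVI with control and of nZVI with nFe3O4 at 1 h listed 6 each, among 7380 and 6643 in all. Over genes, the first correlated at -0.976 with nZVI-headed against neg-headed here, and the second at -0.973 with nFe3O4 against neg-headed. In each, the authors thus called 6 of the 12 genes apart from the neg-headed group already at 1 h, where edgeR called 1. The whole count table holds 12181 genes, and nothing about the 12 is read from these counts.

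The authors' deposited table of 4 h against 1 h does not depend on the names. It listed 8 of the 12 genes among 5408 in all, the same 8 that passed here and with the same signs, at -1.39 for RSUB_12131 and 1.01 for RSUB_02912.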

How the data were processed

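The authors deposited whole read counts per gene in 72 lane columns, per the file headers, not normalized. How reads were counted, and on which build and annotation, is not given in the sources used here. Per the labels' protocols the libraries were stranded and paired-end. The submitters' processing notes name HISAT2, Trimmomatic, bcl2fastq, bedtools 2.27.1, SAMtools, DESeq and DESeq2, without roles. The authors also deposited 50 genes as regularized log2 values centred per gene, and DESeq2 tables with a log2 fold change and an adjusted p-value, limited to genes under 0.05.

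Lanes were summed, the copied library was left out, and edgeR 4.0.16 (limma 3.58.1, R 4.3.3) fitted 6 group means over 17 libraries with TMM scaling. The low-count filter removed 340 of 12181 genes and kept all 12 members. Standard errors come from the test statistic, and 95% intervals from its degrees of freedom. Names were compared over 49 genes on log2(CPM + 0.5). DESeq2 1.42.0 was an alternative. The fit was tested on simulated counts. Between the particle groups, 1.5-fold changes were recovered in 41.8% of changed genes at 4 h and 28.4% at 1 h. For 2-fold changes the shares were 91.0% and 76.1%, and false calls made up 3.75% and 5.59% of calls. In the mean change between the hours 82.1% of 1.5-fold changes were recovered.

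The members, the rule for named genes and the tests were chosen with earlier results of these data known. The rule takes, in each direction, the 2 genes with the largest smaller difference at 4 h, the 2 most abundant, the 2 with the largest change in neg and in the particle groups, the genes nearest to the threshold, and up to 2 rises and 2 falls per test. It named 10 of the 12 members, and RSUB_01043 and RSUB_04546 were added after their values were seen so that each member is given, as were the genes at the 1 h bound. Gene lists by product could not be applied without an annotation. The labels' replicate numbers recur in each group. Deviations from group means correlated over 0.1 in 12 of 40 same-numbered pairs, and in 5 of the 8 that join the hours of 1 condition. The labels do not say whether 1 h and 4 h samples of a number came from the same flask. The numbers were not taken as pairs in the main fit, and blocks by number were run as alternatives.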

Additional observations from a re-analysis of the deposited data

How the results depend on the processing

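The counts of members called between the particle groups (0 at 4 h and 0 at 1 h) and over the mean change between the hours (8) held their side of 1.5 times under RLE scaling, DESeq2, no low-count filter, lane 1 alone and the fit on the 2 groups compared, where it applies. Leaving out 1 library gave 0 to 0 at either hour between the particle groups and 7 to 9 for the mean change, of which at least 7 were among the 8. A replicate block over all groups gave 0, 0 and 8, and a replicate block by culture, for the mean change, 8. The numbers tie 1 h and 4 h libraries of a condition only in part: same-numbered deviations correlated from -0.04 to 0.72 in 8 pairs, and 4 of 8 libraries of 1 h correlated best with their own number. For single genes, 268 of 276 comparisons with an alternative held direction and call. The values that turned sign were uncalled ones, RSUB_04546 between -0.049 and 0.061 and RSUB_05305 between -0.11 and 0.18 when 1 library was left out.

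Membership was less steady. The rule gave 6 genes with a 1 h bound of 0.3, 23 with 0.5, 28 with a 4 h threshold of 0.6 and 3 with 0.8, and 10 to 28 when 1 library was left out. With lane 1 alone it gave 16 genes, 5 of them among the 12, and with RLE scaling 14, 11 of them among the 12. The 12 genes hold few counts at the low end, from 127 a library, and with 2 or 3 libraries a group the precision is set by the spread between libraries.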
